A study of Mus musculus with 24 samples.

Results

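The mature microRNAs (miRNAs) mmu-miR-124-3p, mmu-miR-9-5p, mmu-miR-9-3p and mmu-miR-184-3p were followed in mouse lung after irradiation of the chest (the species prefix mmu is left out from here on). They are 4 of the 1950 mature miRNAs named in the deposited tables, and they were chosen by name as neural or ectodermal miRNAs of low level in lung that differed late after irradiation. The day 180 values below are therefore the ones that chose them: they are described without a test, and only days 14 and 90 were tested. Small RNA of 18 to 30 nucleotides was sequenced from lungs of C57BL/6 mice, 6 to 8 weeks old at the start, that had received 15 Gy of X-rays to the whole thorax, and from lungs of unirradiated control mice (0 Gy) of the same strain and age. Each group was sampled at day 14, day 90 and day 180, with 4 libraries per group and day, 24 libraries in all. No genetic alteration is named in the labels for any group. Separate animals are not stated for the 4 libraries of a group, so a p-value here measures the spread between libraries, which may be technical.

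A miRNA is cut from a hairpin precursor, whose 5p and 3p arms can each be loaded into an Argonaute protein. The loaded strand pairs with messenger RNAs mainly through its seed, bases 2 to 8, and lowers their translation or stability. miR-124 is the classic miRNA of differentiated neurons and restrains non-neuronal transcripts there. miR-9 is expressed in neural progenitors and neurons, both of its arms are functional, and miR-9-5p has also been studied in inflammatory signalling of myeloid cells. miR-184 is known from the cornea and lens, from skin keratinocytes and from neural stem cells. None of these miRNAs is a marker of a main lung cell type, although the lung holds nerve fibres, airway ganglia and neuroendocrine cells.

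The mature sequences are shown because the members differ in their seeds, the part that pairs with targets. The RefSeq table of GRCm38.p6 held 3 of the 4 members. Each is written 5′ to 3′ with the seed in capitals, and the sequence of miR-9b-3p, which returns in the results, is given with them.

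miR-9-5p: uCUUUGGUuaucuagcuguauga

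miR-9-3p: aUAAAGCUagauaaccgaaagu

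miR-184-3p: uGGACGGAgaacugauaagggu

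miR-9b-3p: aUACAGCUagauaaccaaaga

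None of the seeds of miR-9-5p, miR-9-3p and miR-184-3p was shared by another name among the 1679 mature miRNAs of that table. The members are thus a set by tissue association and not a seed family. miR-9-5p and miR-9-3p are not independent of each other, since they are the arms of the same hairpins.

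miR-9 is made from hairpins on 3 chromosomes, all in long non-coding genes. In GRCm38.p6, Mir9-1 lies at chr3:88215598-88215686 on the plus strand, in an intron of the lincRNA Gm3764. Mir9-2 lies at chr13:83738814-83738885 on the plus strand, in an exon of the lincRNA C130071C03Rik. Mir9-3 lies at chr7:79505264-79505353 on the plus strand, in an intron of the lincRNA Mir9-3hg. Mir184 lies at chr9:89802260-89802328 on the minus strand, in no annotated gene. The hairpins, with the mature arms in capitals, show that the miR-9 loci differ only outside the arms, so a read of a mature arm cannot be assigned to a locus.

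Mir9-1: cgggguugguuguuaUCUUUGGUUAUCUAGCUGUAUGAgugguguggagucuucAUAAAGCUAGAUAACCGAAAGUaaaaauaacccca

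Mir9-2: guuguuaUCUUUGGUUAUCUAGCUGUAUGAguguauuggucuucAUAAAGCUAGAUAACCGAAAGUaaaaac

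Mir9-3: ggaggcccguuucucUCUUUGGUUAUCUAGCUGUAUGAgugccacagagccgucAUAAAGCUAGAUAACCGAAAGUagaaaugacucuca

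Mir184: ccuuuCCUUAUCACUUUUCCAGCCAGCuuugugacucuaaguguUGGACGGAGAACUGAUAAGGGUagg

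miR-124 is likewise made from 3 loci, Mir124a-1 on chromosome 14, Mir124a-2 on chromosome 3 and Mir124a-3 on chromosome 2.

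Library totals ran between 2832205 and 3695133 counts. Levels are given as CPM, counts scaled to a common library size within a day by the trimmed mean of M-values (TMM), and 1 count was worth 0.253 to 0.413 CPM. All 10 miRNAs of a lung tissue list, among them miR-200 family members of epithelium, the ciliated-cell miR-34b-5p and miR-34c-5p and the endothelial miR-126a-3p, passed the filter on low counts at each day. Irradiated library 1 of day 180 stood furthest from the others of its day, with a median Spearman correlation of 0.914 against 0.94 for the next library. The members' day 180 log2 fold changes are given with and without it. So are other log2 fold changes and list medians printed for that day that it moved by over 1.5 times.

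All of the members were minor miRNAs of these lungs. By mean CPM within a day, miR-124-3p ranked between 316 and 365, miR-9-5p between 280 and 336, miR-9-3p between 349 and 409 and miR-184-3p between 290 and 363, in tables of 1657, 1707 and 1767 miRNAs at days 14, 90 and 180. Their values therefore rest on few counts, for miR-124-3p 4 to 411 per library. In whole tissue, fewer cells that hold a miRNA and less of it per cell cannot be told apart.

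**Figure D1:**
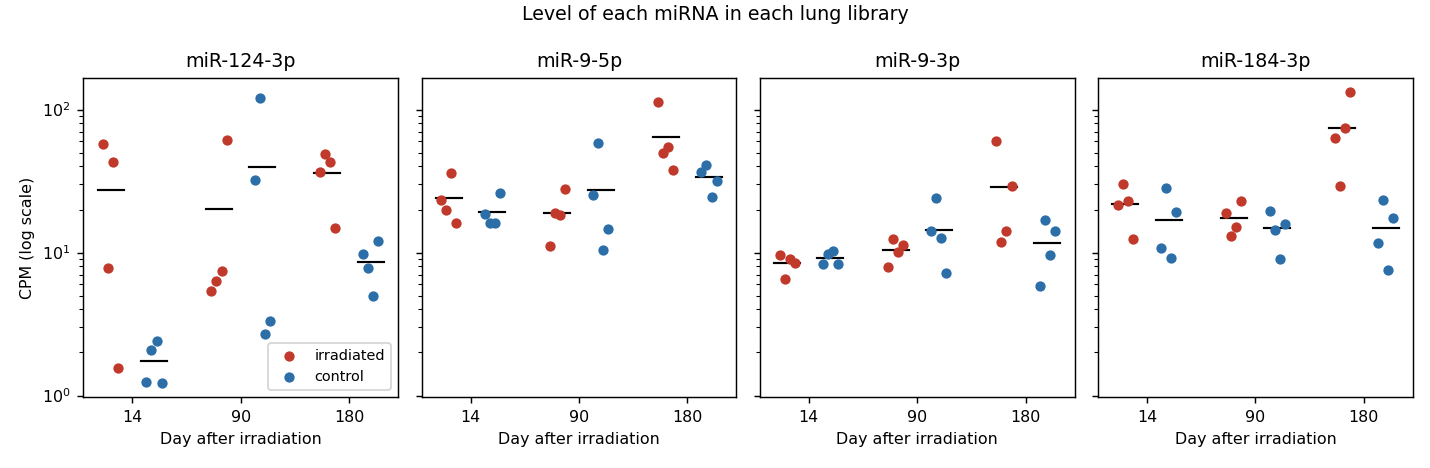
Level of each miRNA in CPM (log scale) in each of the 24 libraries, by day after irradiation; points are libraries, red irradiated and blue control, and black lines are group means. miR-124-3p is spread widely within both groups at day 90, and miR-184-3p lies between 29.4 and 132 CPM in irradiated lungs of day 180, above every control of that day.

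At day 180, the time used to choose them, all of the members had a higher mean in irradiated than in control lungs. miR-184-3p had 63.6, 29.4, 74.4 and 132 CPM in the irradiated lungs and 11.7, 23.2, 7.58 and 17.3 CPM in the control lungs. The irradiated libraries all lay above the control libraries, and irradiated library 4 was the highest of the 24. Irradiated lungs averaged 74.9 ± 42.8 CPM and controls 15.0 ± 6.81 CPM (SD, n = 4 each), a 5.01-fold ratio of means. On the log2 scale, the fold change fitted by edgeR was 2.32 ± 0.50 (SE). It was 1.91 without irradiated library 4 and 2.38 without irradiated library 1.

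miR-124-3p had 36.3, 49.2, 42.8 and 14.9 CPM in irradiated lungs of day 180 and 9.84, 7.74, 4.95 and 12.1 CPM in control lungs. These groups did not overlap either, although irradiated library 4 lay close to the highest control. The means were 35.8 ± 14.9 CPM in the irradiated lungs and 8.65 ± 3.03 CPM in their controls (SD, n = 4 each), a 4.14-fold ratio. The log2 fold change was 2.05 ± 0.43 (SE) and ran between 1.84 and 2.31 when single libraries were left out. Without irradiated library 1 it was 2.03.

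miR-9-5p had 113.5, 49.5, 54.7 and 37.9 CPM in irradiated lungs of day 180 and 36.7, 41.1, 24.5 and 31.9 CPM in control lungs. In this case 3 of the 4 irradiated libraries exceeded every control, and irradiated library 1 stood far above the rest. Irradiated lungs averaged 63.9 ± 33.8 CPM and controls 33.5 ± 7.13 CPM (SD, n = 4 each). Fitted by edgeR, the log2 fold change was 0.93 ± 0.37 (SE) with irradiated library 1 and 0.49 without it.

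miR-9-3p had 59.9, 11.9, 14.2 and 29.3 CPM in irradiated lungs of day 180 and 5.85, 16.8, 9.62 and 14.2 CPM in control lungs. Only irradiated libraries 1 and 4 lay above all controls, and the other irradiated libraries fell within the control range. Irradiated lungs averaged 28.8 ± 22.1 CPM and controls 11.6 ± 4.87 CPM (SD, n = 4 each). This gave a log2 fold change of 1.30 ± 0.56 (SE) and 0.65 without irradiated library 1.

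Among the members, 2 of 4 thus had every irradiated library above every control at day 180, as had 5.43% of the 552 miRNAs tested at that day. The members were chosen on these values and nothing is read from that share. The median log2 fold change of all miRNAs tested was 0.13 at day 180, and the middle 90% of them lay between -0.86 and 1.30. The median was 0.0007 without irradiated library 1, so its distance from 0 rested on that library. At days 14 and 90 the medians were 0.01 and -0.02. No miRNA of the whole day 180 table passed an adjusted p of 0.05 in the edgeR quasi-likelihood test with Benjamini-Hochberg adjustment (0.0%), while 101 (18.3%) had an unadjusted p under 0.05, and DESeq2 called 27 of 692 (3.9%) and edgeR without the filter 18 of 1767 (1.02%).

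**Figure D2:**
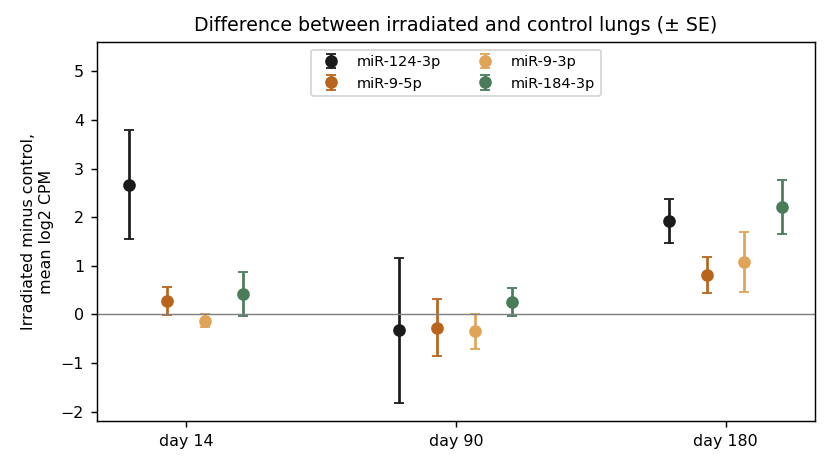
Difference of the mean log2 CPM between irradiated and control lungs (irradiated minus control) for each miRNA at each day; points are differences and bars are ± SE (4 libraries per group). All differences lie above 0 at day 180, where the members were chosen, while at day 90 only miR-184-3p does, by 0.25 ± 0.29.

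The earlier days were not used to choose the members and were tested. At day 14, 3 members passed the filter on low counts and edgeR called none of them. Of 499 miRNAs in the edgeR test, 0 passed (0.0%) and 27 (5.41%) reached an unadjusted p under 0.05. DESeq2 called 1 of 1649 miRNAs (0.0606%), and this was miR-124-3p. No member had groups without overlap, against 0.802% of tested miRNAs with all irradiated libraries above and 1.6% with all below the controls. An exact two-sided permutation test of 4 against 4 libraries cannot go below p = 0.0286.

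miR-124-3p was the member with the widest gap at day 14. Its irradiated lungs had 57.9, 7.85, 42.8 and 1.55 CPM and its control lungs 1.24, 2.07, 2.39 and 1.23 CPM. These values rest on 176, 24, 132 and 5 counts in irradiated lungs and 4, 7, 7 and 4 counts in control lungs. Irradiated libraries 1 to 3 lay above all controls, and irradiated library 4 was within the control range.

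The means of miR-124-3p at day 14 were 27.5 ± 27.2 CPM in the irradiated lungs and 1.73 ± 0.591 CPM in their controls (SD, n = 4 each), so the SD of the irradiated lungs equalled nearly the whole of their mean. The miRNA did not reach the filter on low counts and was not in the edgeR test of day 14. The difference of its mean log2 CPM was 2.67 ± 1.12 (SE), with an exact two-sided permutation p of 0.0857 for its CPM. DESeq2 gave a log2 fold change of 3.94 with an adjusted p of 0.00444, and edgeR without the filter gave 3.96 with a Benjamini-Hochberg adjusted p of 0.0129, as 1 of 7 calls among 1657 miRNAs (0.422%). In the edgeR fit of all 24 libraries, where it passed the filter, its log2 fold change was 3.93 with an adjusted p of 0.355. With the replicate number as a block, which pairs the libraries of day 14, DESeq2 gave 3.08 and an adjusted p of 0.138, while edgeR without the filter gave 3.38 and an adjusted p of 8.4e-14. The block leaves 3 residual degrees of freedom, so little spread was measured for this miRNA itself. How far that last p rests on the spread shared over all miRNAs was not examined. The call at day 14 thus depended on the test used.

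The other members were near their controls at day 14. miR-9-5p had 23.4, 19.95, 36.3 and 16.15 CPM in irradiated lungs and 18.5, 16, 16 and 26.1 CPM in control lungs. The groups overlapped, with a log2 fold change of 0.32 ± 0.29 (adjusted p = 0.919 by edgeR and p = 0.4 by exact permutation). miR-9-3p had 9.54, 6.54, 9.07 and 8.39 CPM in irradiated lungs and 8.34, 9.78, 10.2 and 8.30 CPM in control lungs. This arm varied least of all members, and its log2 fold change was -0.13 ± 0.19 (adjusted p = 0.94 by edgeR and p = 0.457 by exact permutation).

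miR-184-3p had 21.4, 30.4, 23.0 and 12.4 CPM in irradiated lungs of day 14 and 10.8, 28.5, 9.21 and 19.4 CPM in control lungs. The groups overlapped over nearly their whole range. The log2 fold change was 0.36 ± 0.40 (adjusted p = 0.919 by edgeR and p = 0.429 by exact permutation). The highest control, library 2, was also the library with the most miR-205-5p, a miRNA of stratified epithelium, which had 21.3 to 38.8 CPM in the irradiated lungs, 731 CPM in that control library and 30.1 to 61.2 CPM in the other controls. The library of day 14 with the most miR-184-3p, irradiated library 2 with 30.4 CPM, had the least miR-205-5p, 21.3 CPM. Control library 2 also had the highest day 14 sum of a list of striated-muscle miRNAs, 2434 CPM against 697 to 781 CPM in the other controls. Irradiated library 2 had the lowest such sum, 535 CPM. The parts of stratified epithelium and of muscle in the miR-184-3p values were not tested.

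At day 90, all 4 members passed the filter and edgeR called none of them. The edgeR test with Benjamini-Hochberg adjustment called 2 of 558 miRNAs (0.358%), 71 (12.7%) were at an unadjusted p under 0.05, DESeq2 called 17 of 1077 (1.58%), and edgeR without the filter called 18 of 1707 (1.05%). No member had groups that did not overlap, against 4.84% of tested miRNAs with all irradiated libraries above and 2.33% with all below the controls.

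miR-124-3p had 5.40, 6.35, 7.44 and 60.9 CPM in irradiated lungs of day 90 and 32.1, 121, 2.70 and 3.34 CPM in control lungs. Single libraries of both groups were high, and control library 2 was the highest of all 24. Irradiated lungs averaged 20.0 ± 27.3 CPM and controls 39.9 ± 56.1 CPM (SD, n = 4 each). For miR-124-3p this gave a log2 fold change of -0.98 ± 1.16 (adjusted p = 0.826 by edgeR and p = 0.714 by exact permutation). It was 0.67 without control library 2 and -2.66 without irradiated library 4, so single libraries set its sign and size.

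miR-9-5p had 11.1, 18.8, 18.4 and 27.7 CPM in irradiated lungs of day 90 and 25.2, 58.5, 10.5 and 14.6 CPM in control lungs. Control library 2 was again the highest. The log2 fold change was -0.51 ± 0.50 (adjusted p = 0.75 by edgeR and p = 0.686 by exact permutation), and 0.17 without that library.

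miR-9-3p had 7.96, 12.4, 10.1 and 11.3 CPM in irradiated lungs of day 90 and 14.2, 23.9, 12.6 and 7.19 CPM in control lungs. The same control library was the highest, and the groups overlapped. Between them, the log2 fold change was -0.47 ± 0.35 (adjusted p = 0.683 by edgeR and p = 0.343 by exact permutation).

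miR-184-3p had 18.8, 13.0, 15.2 and 22.8 CPM in irradiated lungs of day 90 and 19.7, 14.5, 9.0 and 15.9 CPM in control lungs. Control library 2 was not high for this miRNA, unlike for the other members. Its log2 fold change was 0.24 ± 0.29 (adjusted p = 0.83 by edgeR and p = 0.457 by exact permutation).

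The difference between the radiation effects of day 90 and day 14 was tested in a joint edgeR fit of both days, in which 0 of 588 miRNAs were called (0.0%), 33 (5.61%) had an unadjusted p under 0.05 and DESeq2 called 0. For miR-124-3p the log2 fold change at day 90 minus that at day 14 was -4.91 ± 1.76, with an unadjusted edgeR p of 0.0133 and a Benjamini-Hochberg adjusted p of 0.679. The difference was -0.79 ± 0.64 for miR-9-5p, -0.31 ± 0.41 for miR-9-3p and -0.09 ± 0.52 for miR-184-3p, each with an edgeR adjusted p of 0.997. No member's effect was thus shown to differ between these days. Differences that involve day 180 were not tested, since that day chose the members.

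Set in order over all 24 libraries, the members differed in where their high values lay. The 3 days were scaled separately, so an order across days is a description. For miR-184-3p, the 3 highest libraries were irradiated libraries of day 180, followed by irradiated library 2 of day 14 with 30.4 CPM. The remaining irradiated library of day 180 had 29.4 CPM, close to the 28.5 CPM of control library 2 of day 14.

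For miR-124-3p, the 3 highest libraries were control library 2 of day 90 with 121 CPM, irradiated library 4 of day 90 with 60.9 CPM and irradiated library 1 of day 14 with 57.9 CPM. The irradiated libraries of day 180 came only after these. By group mean, the order was 39.9 CPM in controls of day 90, 35.8 in irradiated lungs of day 180, 27.5 in irradiated lungs of day 14, 20.0 in irradiated lungs of day 90, 8.65 in controls of day 180 and 1.73 in controls of day 14. The first 4 of these means lie within an SD of their neighbours.

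For miR-9-5p, irradiated library 1 of day 180 with 113.5 CPM was followed by control library 2 of day 90 with 58.5 CPM. For miR-9-3p, irradiated libraries 1 and 4 of day 180 were followed by the same control library with 23.9 CPM. In the controls, miR-9-5p averaged 33.5 ± 7.13 CPM in controls of day 180 and 19.2 ± 4.79 CPM in controls of day 14 (SD, n = 4 each), a difference that was not tested.

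The opposite strands of the hairpins were measured where the tables list them. miR-124-5p had 0 or 1 count per library, and miR-184-5p, listed only in the day 180 table, had 0 to 3 counts. miR-124b-3p, which has a related name, had 0 to 3 counts. Where both arms were listed, the 3p arm of miR-124 and miR-184 thus had more counts than the 5p arm in every library, irradiated or control, whereas both arms of miR-9 were well above 0 in every library.

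The ratio of miR-9-3p to miR-9-5p counts is free of library scaling. At day 14 it was 0.409, 0.328, 0.25 and 0.519 in irradiated lungs and 0.45, 0.611, 0.638 and 0.318 in control lungs. The difference of the mean log2 ratio was -0.42, with an exact two-sided permutation p of 0.257. The libraries of the groups were interleaved.

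At day 90 the arm ratio was 0.718, 0.662, 0.548 and 0.407 in irradiated lungs and 0.563, 0.409, 1.2 and 0.491 in control lungs. The log2 difference was -0.09 (exact two-sided permutation p = 0.83), and its sign turned to 0.24 without control library 3 and to 0.08 without irradiated library 4. At day 180 the ratio was 0.527, 0.24, 0.259 and 0.774 in irradiated lungs and 0.159, 0.409, 0.393 and 0.447 in control lungs. The irradiated lungs split into a high pair, libraries 1 and 4, and a low pair, libraries 2 and 3, which lay within the control range. The high pair was also the highest in miR-9-3p at that day.

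**Figure D3:**
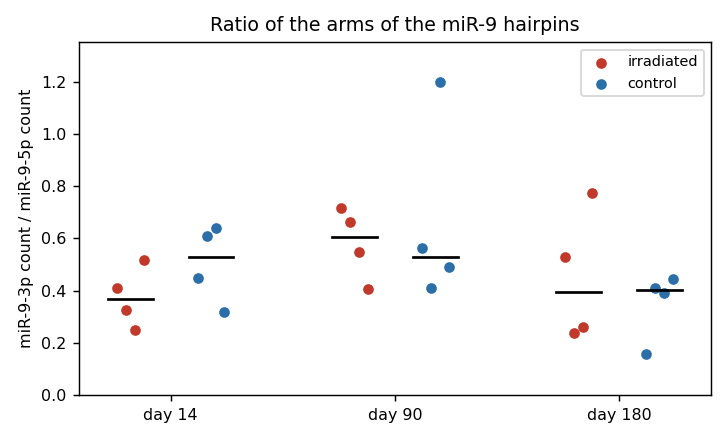
Ratio of miR-9-3p to miR-9-5p counts in each library by day; red points are irradiated libraries, blue points are controls, and black lines are group medians. The groups overlap at every day, and the 3p arm was the less abundant in all libraries but control library 3 of day 90, at 1.2.

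For each member, the miRNAs whose levels followed it most closely were sought among 623 candidates by Spearman's rho of log2 CPM over the 24 libraries, after the mean of each day was taken off. These correlations describe shared variation of libraries that also share scaling, and they carry no test. With only day means taken off, they also hold the day 180 differences that chose the members. For miR-9-5p the closest was miR-9b-3p, with a rho of 0.853, and of 0.843 after the mean of each group was taken off. miR-9b-3p is made from the strand opposite the Mir9 hairpins, and its reverse complement is bases 1 to 21 of the 23 bases of miR-9-5p.

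miR-9b-3p was the more abundant of this antisense pair in every library. Its count was 3.0 to 5.67 times that of miR-9-5p in irradiated lungs of day 14 and 3.55 to 5.67 times in controls. The multiples were 5.88 to 9.26 in irradiated and 4.75 to 8.6 in control lungs at day 90, and 8.04 to 10.9 in irradiated and 7.81 to 10.4 in control lungs at day 180. The ratio differed between days more than between irradiated and control lungs of a day. miR-9b-3p itself had log2 fold changes of 0.20 at day 14 (adjusted p = 0.919 by edgeR), -0.44 at day 90 (adjusted p = 0.782 by edgeR) and 1.02 at day 180 (adjusted p = 0.263 by edgeR). At day 180 it had 1241, 423, 440 and 304 CPM in irradiated lungs and 287, 326, 244 and 333 CPM in control lungs. Without irradiated library 1, which was far above the rest, its log2 fold change was 0.38 (adjusted p = 0.272 by edgeR). No source used here states whether strand was counted, so it is not known how fully reads of this antisense pair were kept apart. They were counted under separate names, and the counts differed in every library. With both summed, the day 90 log2 fold change was -0.46 (adjusted p = 0.769 by edgeR).

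For miR-124-3p the closest miRNA was a predicted, unannotated miRNA that the tables number miR125-5p, which is not the annotated miR-125 family and has no known role, with a rho of 0.896 after day means and 0.899 after group means were taken off. Its counts at day 14 were 64, 3, 34 and 0 in irradiated lungs and 1, 3, 0 and 0 in control lungs. At day 90 they were 4, 7, 6 and 60 in irradiated lungs and 61, 212, 2 and 3 in control lungs. It was high in the same libraries of these days as miR-124-3p, including the control libraries.

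At day 180 the counts of this predicted miR125-5p were 13, 80, 70 and 15 in irradiated lungs and 7, 8, 6 and 6 in control lungs. The next closest to miR-124-3p were the arms of the miR-384 hairpin, miR-384-5p with a rho of 0.772 and miR-384-3p with 0.756. After group means were taken off, these were 0.66 and 0.64. miR-384-5p had 20, 38, 19 and 43 counts in irradiated lungs of day 90 and 23, 96, 9 and 8 counts in control lungs, with the same control library on top. miR-384 is known as a brain-enriched miRNA.

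**Figure D4:**
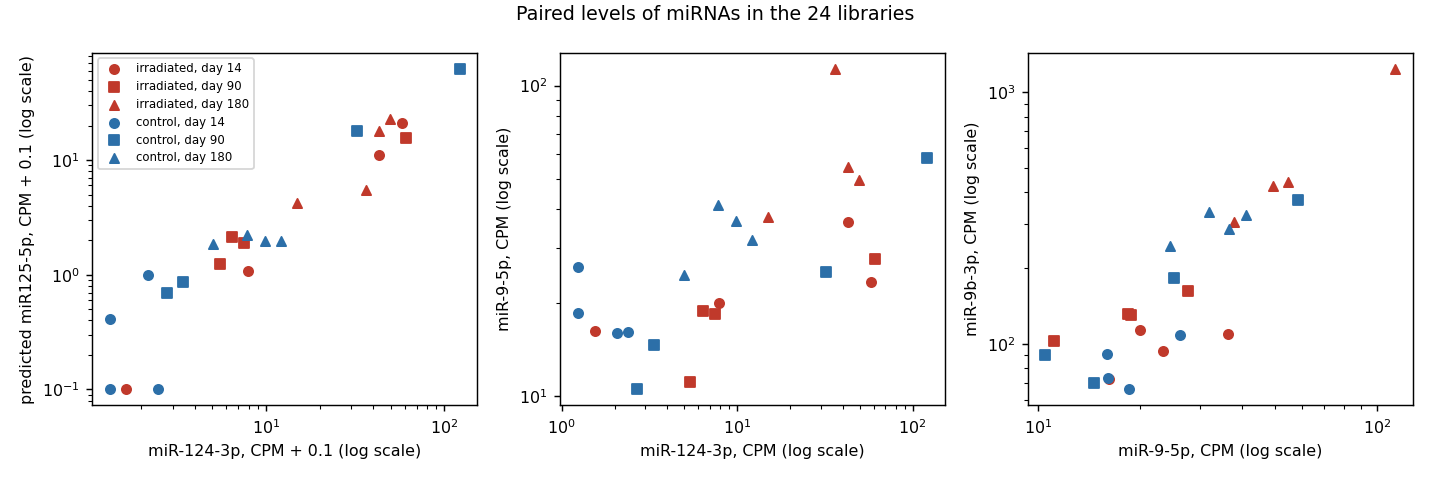
Levels of pairs of miRNAs in the 24 libraries on log scales; each point is a library, with colour for irradiated (red) and control (blue) and shape for the day, and a small constant was added in the left panel so that counts of 0 could be drawn. The predicted miR125-5p follows miR-124-3p in both groups (rho 0.896), miR-9-5p follows miR-124-3p less closely (rho 0.704), and miR-9b-3p follows miR-9-5p (rho 0.853).

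The members followed each other unequally. miR-124-3p and miR-9-5p had a rho of 0.704 after day means and 0.647 after group means were taken off. miR-9-5p and miR-9-3p, the arms of the same hairpins, had a rho of 0.353 after day means and 0.477 after group means were taken off. miR-124-3p and miR-184-3p had a rho of 0.464 after day means and of 0.104 after group means.

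The closest to miR-184-3p were miR-543-5p with a rho of 0.755, miR-21a-5p with 0.751 and miR-28a-3p with 0.744. miR-21a-5p, one of the most studied miRNAs of fibrosis, averaged 25140 ± 2963 CPM in the irradiated lungs and 18550 ± 1220 CPM in the control lungs at day 180 (SD, n = 4 each), with a log2 fold change of 0.44 (adjusted p = 0.171 by edgeR). For miR-21a-5p, the edgeR adjusted p was 0.0554 without irradiated library 1. After group means were taken off, its rho with miR-184-3p was 0.589. The closest to miR-9-3p were miR-701-5p with 0.617, miR-26a-2-3p with 0.55 and a predicted miRNA that the tables number miR118-5p with 0.547. After group means were taken off, miR-701-5p had a rho of 0.681 with miR-9-3p, miR-26a-2-3p 0.579 and the predicted miR118-5p 0.321. With miR-184-3p, miR-543-5p then had 0.511 and miR-28a-3p 0.477.

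Other neuronal and glial miRNAs were examined as a list of 23 names, among them the synaptic miR-132-3p and miR-138-5p and the oligodendrocyte miRNAs miR-219a-5p and miR-338-3p. None passed an edgeR adjusted p of 0.05 at any day, in either direction. Of all miRNAs tested, 0.0% passed at day 14, 0.358% at day 90 and 0.0% at day 180. At day 14, 15 were tested and 8 had a log2 fold change above 0, with a median of 0.15 against 0.01 over all miRNAs tested. At day 90, 16 were tested and 10 were above 0, with a median of 0.07 against -0.02. miR-153-3p had every irradiated library above every control there (367 CPM in the irradiated lungs and 289 CPM in their controls on average, adjusted p = 0.451 by edgeR), as had 4.84% of all tested miRNAs. At day 180, 16 were tested and 10 were above 0, with a median of 0.21 against 0.13.

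At day 180, 2 of the 16 had every irradiated library above every control and 1 had every one below, where 5.43% and 6.52% of all tested miRNAs did. miR-344-3p averaged 66.8 CPM in the irradiated lungs and 40.4 CPM in the control lungs, and miR-433-3p 33.8 CPM in the irradiated lungs and 20.2 CPM in the control lungs. miR-338-3p averaged 389 CPM in the irradiated lungs and 587 CPM in the control lungs. These 3 were named for this lack of overlap, and their edgeR adjusted p-values ran between 0.259 and 0.271. Without irradiated library 1 these p-values ran between 0.0554 and 0.192.

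The summed level of the list was 6532 to 10750 CPM in irradiated and 7554 to 8266 CPM in control lungs at day 180. Irradiated libraries 2 and 3, which had the most miR-124-3p of their group, also had the highest sums, 10200 and 10750 CPM, while irradiated library 1 had the lowest with 6532 CPM. At day 90 the sum was 7875 to 8986 CPM in irradiated and 7968 to 9434 CPM in control lungs, and control library 2, the highest in miR-124-3p, lay within that range at 8600 CPM. At day 14 it was 6297 to 8542 CPM in irradiated and 6300 to 7599 CPM in control lungs. The sum was made up mainly of miR-218-5p, with a mean of 6306 CPM over the 24 libraries, followed by miR-338-3p with 451 CPM and miR-326-3p with 362 CPM. Among the rarer names, miR-137-3p averaged 4.11 CPM, and miR-129-1-3p, miR-129-2-3p, miR-219a-2-3p, miR-346-5p and miR-488-3p were at 0 in at least 1 library. The part of neural material in the members' values was not tested.

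**Figure D5:**
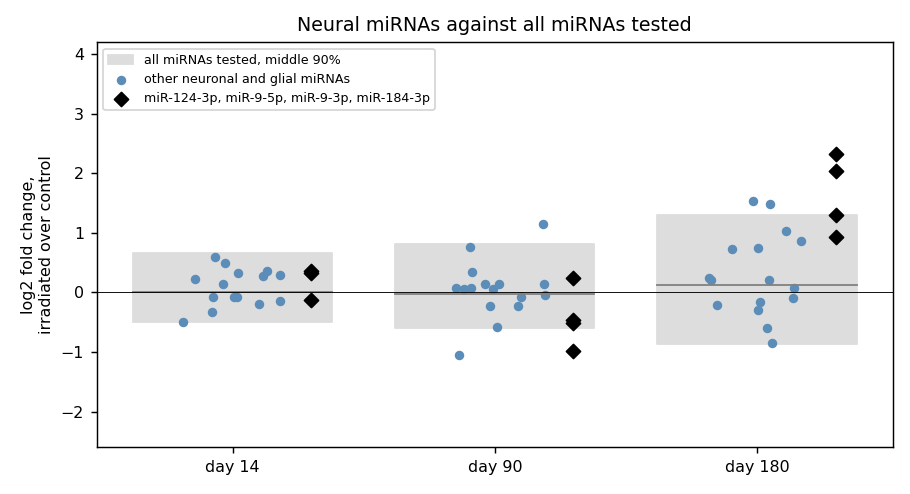
Log2 fold change (irradiated over control) of the members (black diamonds) and of the other neuronal and glial miRNAs (blue points) that passed the filter at each day; grey bands hold the middle 90% of all tested miRNAs and the grey line is their median. The day 180 values chose the members; miR-124-3p is not drawn at day 14, where it did not pass the filter, and the other neural miRNAs lie on both sides of 0 at each day.

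Neuroendocrine miRNAs were compared because these cells share neural genes. miR-7b-5p had 454, 1142, 1417 and 216 CPM in irradiated lungs of day 180 and 68.6, 120, 73.4 and 54.2 CPM in control lungs, without overlap (adjusted p = 0.0809 by edgeR). miR-7a-5p had 887 to 3188 CPM in irradiated and 793 to 865 CPM in control lungs of that day, also without overlap (adjusted p = 0.2505 by edgeR). Of all miRNAs tested at day 180, 5.43% had every irradiated library above every control. miR-375-3p, the most abundant of the list, had 10500, 2970, 4622 and 2577 CPM in irradiated lungs and 4380, 6163, 5365 and 5387 CPM in control lungs (adjusted p = 0.967 by edgeR), with a log2 fold change of -0.04, and of -0.66 without irradiated library 1 (adjusted p = 0.114 by edgeR). Irradiated library 1, the highest in both miR-9 arms, was also the highest in miR-375-3p. This was not particular to neuroendocrine miRNAs. That library also had the highest sums of day 180 for the lung tissue list, 141800 CPM, and for erythroid miRNAs, 37290 CPM. It had the lowest sums for the sensory-cluster miRNAs, 1471 CPM, and for the other neuronal and glial list, 6532 CPM. The summed level of the neuroendocrine list was 4498 to 14140 CPM in irradiated and 5250 to 7127 CPM in control lungs of day 180, and its part in the miR-9 values was not tested.

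Lists of other cell types gave few calls, as did the whole tables. Of all miRNAs tested, edgeR called 0 of 499 at day 14, 2 of 558 (0.358%) at day 90 and 0 of 552 at day 180. The lack of calls is therefore no result about these lists. edgeR called none of the 3 neuroendocrine, 3 sensory-cluster, 4 tested surface-epithelium and eye, 6 leukocyte and 2 erythroid miRNAs at any day, and none of the 10 of the lung tissue list. Of the striated-muscle miRNAs, none of 6 tested was called at day 14 or at day 180, and 1 of 7 was called at day 90: miR-133b-3p averaged 9.24 ± 1.76 CPM in the irradiated lungs and 1.63 ± 0.755 CPM in their controls (SD, n = 4 each; edgeR adjusted p = 0.0221). It is near-identical to miR-133a-3p, so its count is uncertain, and a fit of all 24 libraries called no miRNA at that day. The medians of the log2 fold changes at days 14, 90 and 180 were -0.20, 0.19 and 1.09 for the neuroendocrine list, 0.31, 0.09 and 0.08 for the sensory cluster, and -1.01, 0.13 and 0.09 for surface epithelium and eye. Striated muscle had 0.32, 1.41 and -0.65, and the medians stood at -0.15, -0.12 and -0.02 for leukocytes, 0.39, 0.73 and -0.48 for the erythroid pair, and -0.15, 0.10 and -0.09 for the lung tissue list, beside 0.01, -0.02 and 0.13 over all miRNAs tested. Without irradiated library 1, the day 180 median was 0.63 for the neuroendocrine list, 0.36 for the sensory cluster, -0.33 for the lung tissue list, -0.78 for the erythroid pair and 0.24 for the other neuronal and glial miRNAs.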

How the data were processed

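The deposited tables, 1 per day, hold for each library the authors' read counts per mature miRNA, whole numbers that were not normalised, and the authors' RPM values, which were used only for the library totals behind them. Per the submitters' processing notes, Bowtie2 and GRCm38.p6 were used, for steps that they do not name. No source used here gives the Bowtie2 version, the use of molecular identifiers or the use of strand, and counts are therefore not treated as single molecules. Every pair of libraries within a day gave a chi-square per degree of freedom of at least 50.2, and none was taken as a copy.

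Counts were tested per day with edgeR 4.0.16 in R 4.3.3 (filterByExpr with a minimum count of 10, TMM, quasi-likelihood F-test with the legacy fit, Benjamini-Hochberg adjustment over the whole table, threshold 0.05), which left 499, 558 and 552 miRNAs. The steps were tested on simulated data. Single levels and the arm ratio (pseudocount 0.5) were tested with exact two-sided permutation tests. Alternatives were DESeq2 1.42.0, limma-voom (limma 3.58.1), DESeq2-type (RLE) size factors, the authors' totals, no filter, a replicate block, all 24 libraries in a single fit, an arm-ratio pseudocount of 1, and leaving out each library. The summing of miR-9-5p with miR-9b-3p, and for miR-124-3p at day 14 the block in DESeq2 and in edgeR without the filter, were added after the values were seen.

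The members and lists were chosen with earlier results of these data known. Named miRNAs were the members, the other arms, seed relatives, the list miRNAs called by edgeR at any day, the 3 most abundant other neuronal and glial miRNAs, and for each member the 3 with the highest Spearman rho (log2 CPM, prior count 2). miR-124b-3p, miR-205-5p, miR-7a-5p, miR-7b-5p, miR-375-3p and the other neuronal and glial miRNAs without overlap were named after their values were seen. Further miRNAs without overlap in the remaining lists are not named. Libraries of day 14 that share a replicate number deviated from their group means together (correlations 0.172 to 0.465 in the 4 pairs), so the numbers pair them there. The main edgeR and permutation tests of day 14 took the libraries as unpaired, and the pairing entered only as an alternative. Hairpin positions and sequences are from RefSeq tables of GRCm38.p6.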

Additional observations from a re-analysis of the deposited data

Results flagged for a closer look

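Of the 24 groups of 4 libraries checked for the members, 1 held a library far from the others, where chance gives about 1 in 20. Irradiated library 4 of day 90 had 60.9 CPM of miR-124-3p, while the other irradiated libraries of that day had 5.40 to 7.44 CPM. Its gap to the next library made up 0.963 of the range of the group, above Dixon's critical value. In controls of the same day, miR-124-3p was likewise uneven, with 2.70 to 121 CPM. The cause was not tested.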

How the results depend on the processing

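The 12 tested results of the members were recomputed in 202 alternatives, of which 192 kept their direction and their side of the threshold, 7 turned and 3 newly passed it. For miR-124-3p at day 14, the main value was the difference of mean log2 CPM, 2.67, with its permutation p. Its 10 alternatives were edgeR or DESeq2 fits judged by adjusted p, an unlike measure. Fits that filtered it out, such as those without irradiated library 1, 2 or 3, gave none. The 2 tested arm ratios turned in 2 of 20. The 4 members' day 180 values, which have no test, kept their direction in all 61 alternatives. Those alternatives refit the libraries on which the members were chosen, so nothing is read from the kept direction. miR-124-3p at day 14 was called by DESeq2 (log2 fold change 3.94) and without the filter (3.96), and with the replicate block by edgeR without the filter (3.38) but not by DESeq2 (3.08). At day 90, the log2 fold change ran between -2.66 and 0.67 for miR-124-3p and between -0.80 and 0.17 for miR-9-5p over the libraries left out, and was above 0 only without control library 2. The difference between day 90 and day 14 ran between -0.56 and 0.048 for miR-9-3p, above 0 only without control library 2 of day 90, and between -0.48 and 0.12 for miR-184-3p, which turned to 0.09 without control library 1 of day 14, 0.11 without control library 3 of day 14, 0.09 without control library 1 of day 90 and 0.12 without irradiated library 2 of day 14. The log2 arm ratio at day 90 ran between -0.28 and 0.24 over the libraries left out. The cause of these turns beyond the library left out was not tested.

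The number of miRNAs called was 1 by DESeq2, 1 with all 24 libraries in a single fit and 7 without the filter at day 14, where edgeR called 0. At day 90 these counts were 17, 0 and 18 against 2, and at day 180 they were 27, 32 and 18 against 0. Leaving out single libraries gave 0 to 1, 0 to 7 and 0 to 5 calls at days 14, 90 and 180, the highest without irradiated library 4, control library 4 and irradiated library 2 of those days. With the replicate block, 0 miRNAs were called at day 14, 0 at day 90 against 2 without it, 0 at day 180, and 1 for the difference between days 90 and 14 against 0. At days 90 and 180 the correlations of same-numbered libraries ran between -0.224 and 0.355 and between -0.356 and -0.0934, and 3 of 8 and 0 of 8 libraries correlated best with their own number, so the numbers do not pair them there. For the members that passed the filter, the block in edgeR changed no call. With 4 to 7 counts of miR-124-3p per control library of day 14, depth limits what can be told there.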
